A study of Mus musculus with 54 samples.

Results

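Motor neurons of the hypoglossal nucleus (CN12), the brainstem nucleus that moves the tongue, were compared between mSOD mice and wild-type littermates at P112, where P is postnatal day. The 6 libraries used were those whose titles name CN12, P112 and either genotype: 3 mSOD and 3 wild type, of 54 libraries in the series. mSOD mice carry a SOD1G93A transgene, a human SOD1 gene with a mutation that causes amyotrophic lateral sclerosis (ALS), which is not limited to motor neurons. The wild-type littermates (Jax Stock No 00435) serve as controls, and the design names P112 as the stage with symptoms and P56 as the stage before them. Cells were cut from tissue by laser capture microdissection and their polyadenylated RNA was sequenced as bulk Smart-seq2 libraries, which hold full-length cDNA without molecular identifiers or strand. The design calls the libraries biological replicates, but the labels do not say whether each is 1 animal. The p-values thus measure only the spread between libraries of a group, estimated over all 54 libraries, which may in part be technical.

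Hypoglossal neurons are cholinergic somatic motor neurons that reach skeletal muscle directly and are affected in ALS, whereas the eye muscle nuclei are largely spared. A motor neuron whose axon is cut or loses its muscle switches on a regeneration programme, in which transcription factors such as ATF3 and JUN act on growth-associated proteins, neuropeptides and cytoskeletal genes. The comparison asks which genes differ between genotypes in this nucleus once symptoms are present.

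The 6 libraries held 3012430 to 4455090 counts, with 21452 to 22892 genes at 1 count or more. Human SOD1 took 6.13% to 7.63% of all counts in mSOD, against 0.00143% to 0.00222% in wild type, as the genotype labels say. The mouse gene Sod1 (ENSMUSG00000022982), which is not deleted, was measured at 774, 756 and 479 CPM in mSOD and at 660.5, 843 and 731 CPM in wild type, where CPM is counts scaled so that libraries of different depth compare. Sod1 overlapped between genotypes (log2 change 0.09, SE 0.25, adjusted p = 1), and its sign turned without the project term (log2 change −0.15). Of the 6 libraries, mSOD replicate 3 carries another prefix in the library code of its title (P11355) than the other 5 (P10814). The prefix was taken as the sequencing project, although the labels do not say what it stands for. Project was a term of the fit, and values within P10814 are given where they end a call.

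Between mSOD and wild type, 13 of the 18493 mouse genes tested had an adjusted p under 0.05 in edgeR's quasi-likelihood test, which is 0.0703% of them. All 13 were higher in mSOD and 0 were lower. At an unadjusted p under 0.05 there were 810 genes (4.38%), 417 higher (2.25%) and 393 lower (2.13%). The 13 comprise 9 protein-coding genes, namely S100a11, Sprr1a, Odc1, Gal, Cryba2, Cd63, Cd44, Serpinb1a and Rhoc, and 4 pseudogenes that are copies of S100a11 or Cd63. Every mSOD library lay above every wild-type library in all 13, in CPM and in the deposited RPKM (counts scaled to gene length and depth). mSOD replicate 1 was the lowest mSOD library in 11 of the 13, and the highest was replicate 3 in 7 and replicate 2 in 6. The number of genes was 6, 4 and 8 when wild-type replicate 1, 2 or 3 was left out. It was 13, 12 and 9 without mSOD replicate 1, 2 or 3. S100a11, Gm7665, Gm12854 and Sprr1a passed in all 6 of those fits. In bulk libraries, fewer cells that express a gene and less RNA per cell cannot be told apart.

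**Figure D1:**
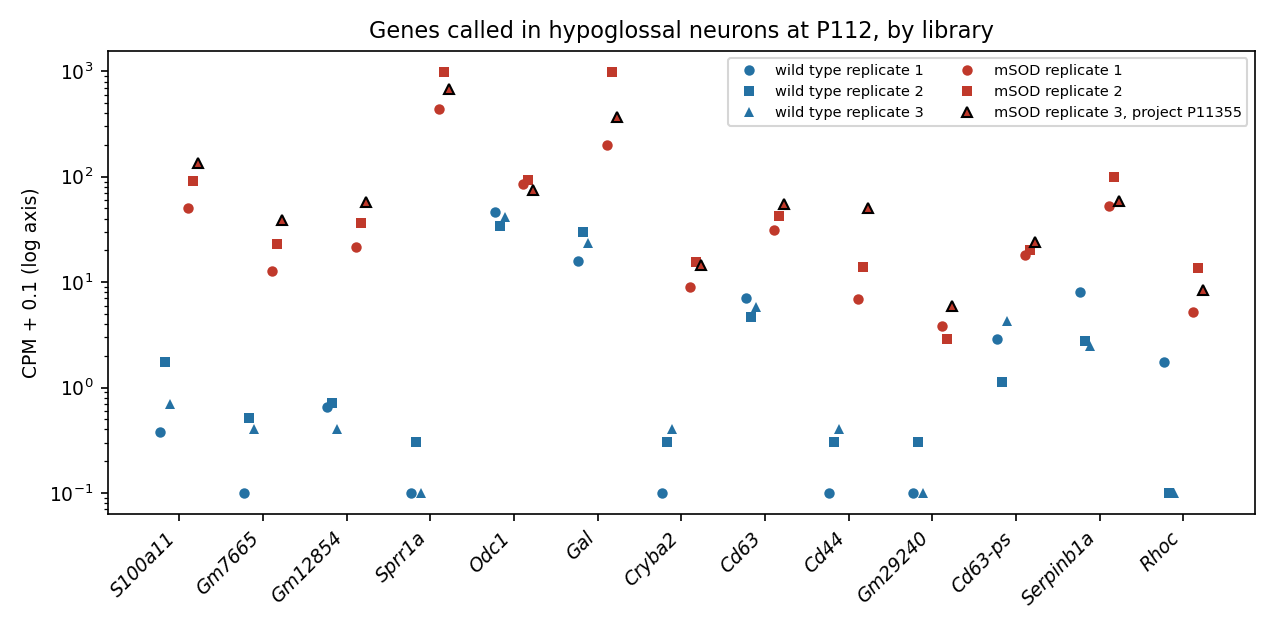
CPM plus 0.1 on a log axis for the 13 genes with an adjusted p under 0.05, with 1 point per library, wild type in blue and mSOD in red, and mSOD replicate 3 of project P11355 outlined in black. In each gene the 3 red points lie above the 3 blue points, with the smallest gap in Odc1 and the greatest in Sprr1a.

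S100a11 encodes a small calcium-binding protein of the S100 family that acts with annexins at membranes. It had the smallest p. In wild type S100a11 (ENSMUSG00000027907) was measured at 0.276, 1.65 and 0.601 CPM, which are 1, 8 and 2 counts. In mSOD the same gene was at 50.5, 91.3 and 135 CPM, or 148, 389 and 555 counts. S100a11 thus lay near the limit of detection in wild type and well above it in every mSOD library, with a log2 change of 6.43 (SE 0.65, adjusted p = 1.59e-08).

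Gm12854, Gm7665 and Gm29240 are annotated as pseudogenes. Their transcripts matched S100a11 at 98.99% over 297 bases, 98.65% over 297 bases and 90.49% over 284 bases. The coding stretch of S100a11 and the copy Gm12854 are printed 5′ to 3′ because they show how little sets the reads of these genes apart. The capitals mark the 3 bases at which they differ (GENCODE M21 transcripts, build GRCm38).
S100a11: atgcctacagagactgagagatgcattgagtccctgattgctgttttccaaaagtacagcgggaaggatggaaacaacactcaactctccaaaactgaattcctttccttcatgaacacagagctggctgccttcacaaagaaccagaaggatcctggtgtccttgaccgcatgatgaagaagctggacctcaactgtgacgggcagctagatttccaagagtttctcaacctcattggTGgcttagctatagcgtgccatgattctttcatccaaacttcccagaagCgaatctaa
Gm12854: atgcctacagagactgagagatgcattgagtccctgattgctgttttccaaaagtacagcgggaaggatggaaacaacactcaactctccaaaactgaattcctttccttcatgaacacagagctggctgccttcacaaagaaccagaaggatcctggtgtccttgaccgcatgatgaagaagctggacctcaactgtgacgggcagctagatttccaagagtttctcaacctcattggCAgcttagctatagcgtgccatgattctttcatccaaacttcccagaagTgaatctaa
The longest run without a difference is 239 bases. Gm12854 was at 0.552, 0.620 and 0.300 CPM in wild type and at 21.5, 35.9 and 57.1 CPM in mSOD (log2 change 6.07, SE 0.69, adjusted p = 8.16e-08). Gm7665 had 0, 2 and 1 counts in wild type and 37, 98 and 160 in mSOD, and the ratio of the summed counts, scaled for depth, was 103 (95% counting interval 34.7 to 500.0, adjusted p = 6.57e-08). Gm29240 had 0, 1 and 0 counts in wild type and 11, 12 and 24 in mSOD, a ratio of 49.01 (95% counting interval 8.38 to 1976, adjusted p = 0.0172). These intervals cover counting error only. The call of Gm29240 was lost without wild-type replicate 1, 2 or 3 or mSOD replicate 1 (adjusted p 0.0713 to 0.182). It was also lost in a fit of only these 6 libraries (0.0588). Within project P10814, Gm29240 was not among the genes tested.

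Counts on the copies kept to a narrow share of those on S100a11. In the mSOD libraries Gm12854 held 39.3% to 42.6% of the S100a11 counts, Gm7665 25.00% to 28.8% and Gm29240 3.08% to 7.43%. In the 6 libraries of the vagus nucleus (CN10) at P112, where S100a11 is abundant in both genotypes, the shares were 38.1% to 41.3%, 24.8% to 29.2% and 3.60% to 5.06%. For each copy the ranges of these nuclei overlapped. How reads that match several places were counted is not given in the sources used here, so which of the 4 genes the reads came from is uncertain.

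Sprr1a, Gal and Cd44 were the 3 genes of the nerve injury list that passed. Sprr1a (ENSMUSG00000050359) encodes a small proline-rich protein known from keratinocytes and from regenerating axons. It had 0, 1 and 0 counts in the wild-type libraries and 436, 989 and 686 CPM in mSOD. The ratio of its summed counts was 8665 (95% counting interval 1555 to 342276, adjusted p = 0.000675), with a wide interval because wild type holds 1 count. DESeq2 gave no adjusted p for Sprr1a. Scaled to length, Sprr1a had the highest mean of the 13 genes in mSOD, 1134 ± 449 RPKM (SD, n = 3) against 0.118 ± 0.205 RPKM in wild type.

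Gal (ENSMUSG00000024907) encodes the neuropeptide galanin, which axotomised neurons are known to produce. It was measured at 15.7, 29.8 and 23.4 CPM in wild type and at 198, 981 and 368 CPM in mSOD. Gal was thus present in wild type and rose by a fitted 5.07 on the log2 scale (SE 0.88, adjusted p = 0.00457). Without the project term the fitted log2 change was 4.48. The mSOD libraries of Gal ranged widely, at 516 ± 412 CPM (SD, n = 3). Without mSOD replicate 2, the highest library, the adjusted p of Gal was 0.133, and without wild-type replicate 1, 2 or 3 it was 0.0882, 0.0745 or 0.0665. Within project P10814 alone it was 0.430.

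Cd44 (ENSMUSG00000005087), a receptor for hyaluronan and osteopontin at the cell surface, had 0, 1 and 1 counts in wild type and 20, 59 and 205 counts in mSOD. That is 6.82, 13.9 and 49.8 CPM in the mSOD libraries, of which replicate 3 stood highest. The ratio of the summed counts was 148 (95% counting interval 40.6 to 1229, adjusted p = 0.0166). The call of Cd44 was lost without wild-type replicate 1, 2 or 3 (adjusted p 0.194, 0.217 and 0.108) and without mSOD replicate 3 (0.0685).

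Cd63 (ENSMUSG00000025351) encodes a tetraspanin of late endosomes, lysosomes and exosomes. Its level was 6.91, 4.55 and 5.71 CPM in wild type and 31.03, 42.03 and 55.4 CPM in mSOD (log2 change 3.04, SE 0.59, adjusted p = 0.0116). Cd63-ps, a copy that matches Cd63 at 98.02% over 858 bases, was at 2.76, 1.03 and 4.21 CPM in wild type and 18.1, 20.2 and 23.8 CPM in mSOD (log2 change 3.22, SE 0.66, adjusted p = 0.0173). In the mSOD libraries Cd63-ps held 42.98% to 58.2% of the Cd63 counts, and in the CN10 libraries 43.5% to 54.3%, so the same limit holds for this pair. Without wild-type replicate 1, 2 or 3 the adjusted p of Cd63 was 0.0807, 0.217 or 0.107. The call of Cd63-ps was lost without wild-type replicate 1 (0.148), wild-type replicate 2 (0.428) and mSOD replicate 3 (0.0685).

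Odc1 (ENSMUSG00000011179), ornithine decarboxylase, is the first and rate-limiting enzyme of polyamine synthesis. It had the smallest of the 13 changes, at 45.9, 34.1 and 41.2 CPM in wild type and 84.6, 93.2 and 73.9 CPM in mSOD. Odc1 rose 2.26-fold (log2 change 1.18, SE 0.21, adjusted p = 0.00457). The adjusted p was 0.128 without wild-type replicate 2 and 0.149 in a fit of only the 6 libraries.

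Cryba2 (ENSMUSG00000006546), a crystallin best known from the lens, had 0, 1 and 1 counts in wild type and 26, 65 and 59 counts in mSOD, with 8.87, 15.3 and 14.3 CPM in the latter. The ratio of its summed counts was 78.2 (95% counting interval 21.3 to 652, adjusted p = 0.00473). Without wild-type replicate 1 or 2 the adjusted p of Cryba2 was 0.0882 or 0.0950. Serpinb1a (ENSMUSG00000044734) encodes an intracellular inhibitor of neutrophil serine proteases. It was at 8.01, 2.69 and 2.40 CPM in wild type and 52.5, 99.3 and 58.1 CPM in mSOD (log2 change 4.06, SE 0.84, adjusted p = 0.0224). Rhoc (ENSMUSG00000002233), a small GTPase that acts on actin, was at 1.66, 0 and 0 CPM in wild type and 5.12, 13.4 and 8.27 CPM in mSOD (log2 change 4.35, SE 0.92, adjusted p = 0.0287). Leaving out any single library other than mSOD replicate 1 ended the call of Serpinb1a (adjusted p 0.0512 to 0.428). The call of Rhoc was lost without wild-type replicate 2 or 3 or mSOD replicate 2 or 3 (0.0774 to 0.634). Wild-type replicate 1 holds all wild-type counts of Rhoc, and without it the fitted log2 change was 8.53, which is no bound. Rhoc also missed the threshold without the project term (0.0874), within P10814 (0.0715) and in a fit of only the 6 libraries (0.163).

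**Figure D2:**
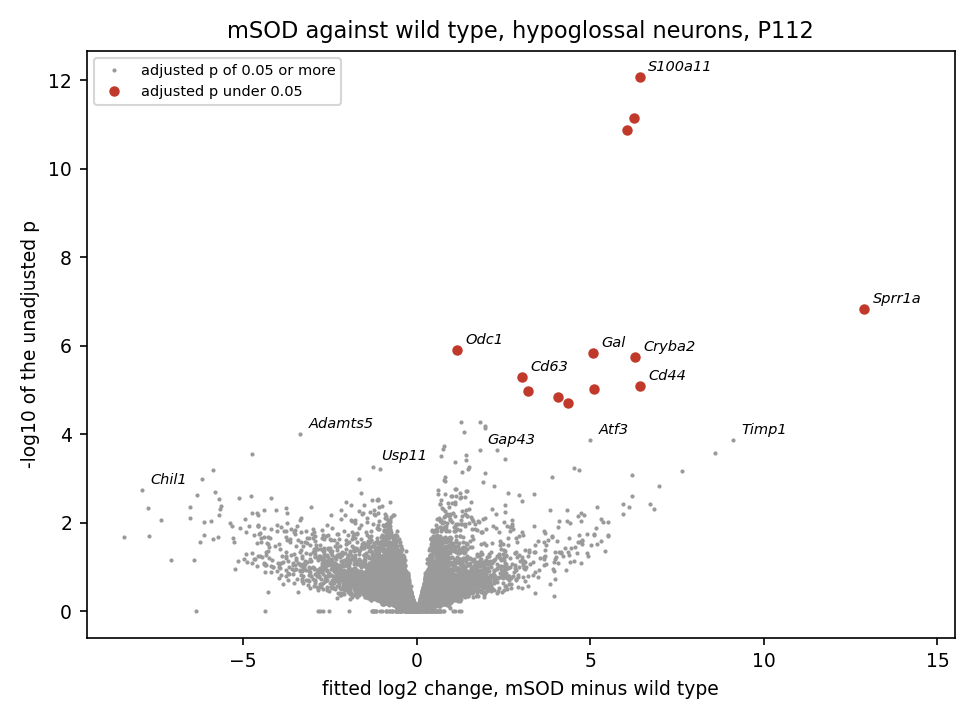
Fitted log2 change (horizontal) against −log10 of the unadjusted p (vertical) for the 18493 genes tested, with the 13 genes at an adjusted p under 0.05 in red. All red points lie on the right, and the fitted change of genes with few counts in 1 arm, such as Sprr1a, depends on the prior and is no measured fold.

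Of the 9 protein-coding genes, 8 had a promoter entry from RefSeq (build GRCm38.p6), and Serpinb1a had none. In the 250 bases before the start, 3 of the 8 held the AP-1 motif TGACTCA on either strand (read as TGAGTCA where it lies on the other), the motif bound by JUN and FOS family dimers. Of all 32851 promoters, 4.46% held a match. None of the 8 held the CRE motif TGACGTCA or the STAT motif TTCNNNGAA on either strand, which 1.55% and 7.02% of all promoters held. The promoters with a match are printed 5′ to 3′ along the strand of the gene, with the AP-1 matches in capitals, for S100a11 at chr3:93520246-93520495 (plus strand), Sprr1a at chr3:92485882-92486131 (minus strand) and Cryba2 at chr1:74893144-74893393 (minus strand).
S100a11 promoter: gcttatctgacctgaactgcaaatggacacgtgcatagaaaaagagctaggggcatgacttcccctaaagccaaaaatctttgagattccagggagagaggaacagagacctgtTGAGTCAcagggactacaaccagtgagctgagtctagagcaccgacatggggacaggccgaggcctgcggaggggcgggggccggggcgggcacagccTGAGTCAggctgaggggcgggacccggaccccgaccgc
Sprr1a promoter: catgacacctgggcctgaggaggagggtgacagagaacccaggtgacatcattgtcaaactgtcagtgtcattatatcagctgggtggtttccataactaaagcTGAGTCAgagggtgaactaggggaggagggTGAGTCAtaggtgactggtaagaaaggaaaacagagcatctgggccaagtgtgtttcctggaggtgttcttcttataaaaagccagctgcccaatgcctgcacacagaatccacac
Cryba2 promoter: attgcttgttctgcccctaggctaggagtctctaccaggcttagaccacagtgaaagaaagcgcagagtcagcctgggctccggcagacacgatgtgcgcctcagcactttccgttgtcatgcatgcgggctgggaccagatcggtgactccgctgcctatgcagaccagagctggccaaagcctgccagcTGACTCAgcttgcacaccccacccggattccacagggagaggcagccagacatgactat
The matches lie 136 and 38 bases before the start in S100a11, 146 and 116 bases in Sprr1a and 59 bases in Cryba2. A match is a string of letters and not a measured binding site, and the promoters of Odc1, Gal, Cd63, Cd44 and Rhoc lack these letters in this window.

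After the 13 genes, the higher genes with the smallest p and no overlap between arms were Jpt1, Itga7, Tubb6, Pappa, Cd24a, Timp1, Atf3, Dbi, Fabp5 and Gap43, none of which passed. In all, 890 genes (4.81%) had every mSOD library above every wild-type library, and 880 (4.76%) the reverse. Jpt1, a microtubule-associated protein, was at 124, 111 and 84.4 CPM in wild type and 228, 229 and 209 CPM in mSOD (log2 change 1.28, SE 0.29, adjusted p = 0.0670). Itga7, the laminin receptor subunit integrin alpha-7, was at 25.4, 35.6 and 33.04 CPM against 60.02, 129 and 87.8 CPM (log2 change 1.83, SE 0.41, adjusted p = 0.0670). Tubb6, a beta-tubulin, was at 16.3, 12.8 and 14.7 CPM against 48.4, 50.01 and 56.4 CPM (log2 change 1.97, SE 0.45, adjusted p = 0.0739). In Jpt1, Itga7 and Tubb6 the genotypes lay well apart, with adjusted p values just above the threshold.

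Timp1, an inhibitor of matrix metalloproteinases, had 0 counts in all 3 wild-type libraries and 28, 85 and 90 counts in mSOD. Against a floor of 3 counts over the wild-type group it was at least 70.6-fold higher, yet its adjusted p was 0.122. Atf3, the injury-induced transcription factor, was at 0.829, 3.31 and 1.80 CPM in wild type and 25.6, 88.8 and 55.9 CPM in mSOD (log2 change 5.00, SE 1.18, adjusted p = 0.122). Gap43, the growth cone protein, was at 40.9, 63.7 and 61.9 CPM against 141, 175 and 245 CPM (log2 change 1.81, SE 0.45, adjusted p = 0.171). In a fit of only the 6 libraries, which estimates the spread from them alone, Timp1, Atf3 and Gap43 did pass (adjusted p 0.00104, 0.00104 and 0.0120). That fit called 29 genes, of which 10 were among the 13. Timp1, Atf3 and Gap43 also passed without the filter on low counts and within P10814. None of the 3 passed without the project term, with any 1 of the 6 libraries left out, or with DESeq2 (adjusted p 0.296 for Atf3 and 0.0590 for Gap43).

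Cd24a, a glycosylated surface protein, was at 222, 169.9 and 217 CPM in wild type and 454, 483 and 909 CPM in mSOD (log2 change 1.37, SE 0.32, adjusted p = 0.0929). Pappa, a metalloprotease that cleaves insulin-like growth factor binding proteins, was at 2.21, 3.51 and 11.4 CPM against 20.8, 20.9 and 29.7 CPM (adjusted p = 0.0768). The lipid-binding genes Dbi (log2 change 0.78, SE 0.19, adjusted p = 0.154) and Fabp5 (log2 change 0.76, SE 0.19, adjusted p = 0.171) differed less. Non-overlap between genotypes was a condition for naming these 4 genes.

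No gene was lower in mSOD at an adjusted p under 0.05, but alternatives called some: 25 without the filter on low counts (beside 58 higher), 7 within P10814 (beside 53), 2 with DESeq2 (beside 27), 2 without mSOD replicate 2 (beside 10) and 1 in the fit of only the 6 libraries (beside 28). The lower genes with the smallest p and no overlap between arms were Adamts5, Usp11, Gm4211, Brinp2, Chil1, Shroom2, Chst9, Gm43316, Wipf3 and AA414768. Adamts5, an aggrecan-cleaving protease, had 24, 8 and 10 counts in wild type and 1, 1 and 4 in mSOD (log2 change −3.35, SE 0.79, adjusted p = 0.0980). Usp11, a deubiquitinase, was at 28.7, 23.6 and 19.5 CPM in wild type and 8.53, 15.7 and 9.97 CPM in mSOD (log2 change −1.25, SE 0.34, adjusted p = 0.300). Brinp2 was at 9.12, 11.6 and 12.02 CPM against 5.12, 3.29 and 2.92 CPM (log2 change −1.66, SE 0.48, adjusted p = 0.408). Shroom2, an actin-binding protein, had a log2 change of −1.60 (SE 0.49, adjusted p = 0.636). Chil1, Chst9, Wipf3 and AA414768 had 0 counts in the 3 mSOD libraries, and their wild-type libraries held 22, 6 and 2, 8, 19 and 5, 7, 8 and 1, and 4, 4 and 3 counts. Several of the other lower genes thus rest on few counts.

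Of the 34 genes of the nerve injury and regeneration list, 30 were tested, and the other 4 were too low. A gene near 0 in wild type passes the filter on low counts only through groups in which it is higher. This list and the other gene lists were also chosen with earlier results of these data known. Their shares are a description and no test. As named above, 3 of the 30 rose and 0 fell, where 0.0703% of all genes rose. At an unadjusted p under 0.05, 13 of the 30 were higher (2.25% of all genes) and 0 lower (2.13%), and in 16 every mSOD library was above wild type (4.81% of all genes). The median log2 change of the 30 was 0.67, against −0.02 over all genes tested. Beside the genes already given, Gadd45a, a stress-response gene, was at 5.52, 5.38 and 3.30 CPM in wild type and 12.96, 20.2 and 24.1 CPM in mSOD (log2 change 1.96, SE 0.55, adjusted p = 0.335). Chl1, an adhesion molecule of growing axons, was at 16.3, 17.2 and 15.02 CPM against 36.8, 65.3 and 159.5 CPM (log2 change 1.88, SE 0.75, adjusted p = 0.971). Sox11, a transcription factor of developing neurons, was at 15.47, 11.99 and 18.02 CPM against 24.6, 33.1 and 60.1 CPM (log2 change 0.91, SE 0.42, adjusted p = 1). In Gadd45a, Chl1 and Sox11 the mSOD libraries lay above wild type without passing.

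Other transcriptional regulators of this list had smaller log2 changes than Atf3. Jun was at 48.9, 37.6 and 43.3 CPM in wild type and 50.8, 60.8 and 57.1 CPM in mSOD (log2 change 0.33, SE 0.37, adjusted p = 1). Stat3 was at 89.8, 85.4 and 102 CPM against 148, 139.7 and 108 CPM (log2 change 0.67, SE 0.28, adjusted p = 1). Klf6 had no overlap between genotypes either (log2 change 0.94, SE 0.50, adjusted p = 1). Smad1 overlapped (log2 change −0.14, SE 0.36, adjusted p = 1).

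**Figure D3:**
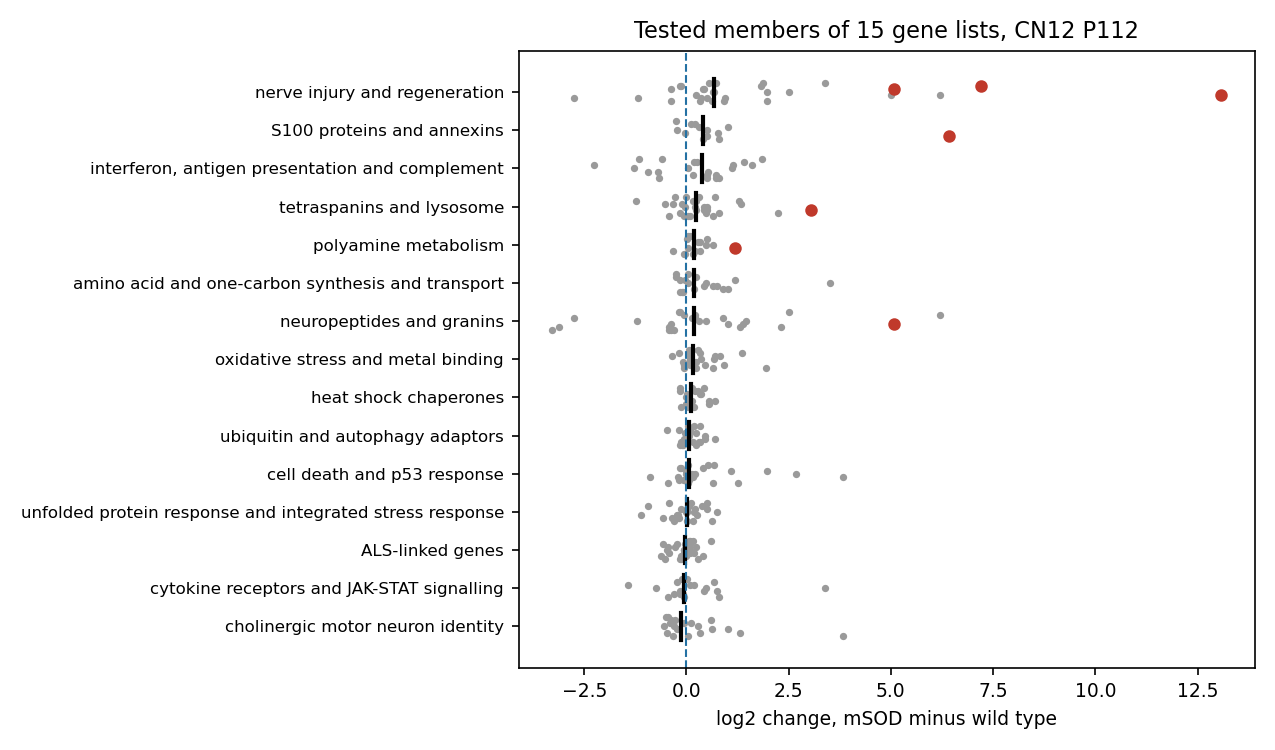
Log2 change of each tested member of the 15 gene lists, with members at an adjusted p under 0.05 in red, the list's median as a black bar and the median of all genes as a dashed blue line at −0.02. Where an arm had 3 counts or fewer in all, the point is the bound or the ratio of summed counts, and the nerve injury list has the highest median, 0.67.

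Of the 26 neuropeptide and granin genes, all were tested and Gal was the 1 that passed, where 0.0703% of all genes did. In 14 of the 26 the log2 change was above 0, beside 8863 of all 18493 genes. The median was 0.17, against −0.02 over all genes tested. In 6 every mSOD library was above wild type (4.81% of all genes) and in 0 below (4.76%). At an unadjusted p under 0.05, 4 were higher (2.25% of all genes) and 2 lower (2.13%). The lower ones were Pcsk2, a prohormone convertase (log2 change −0.43, SE 0.20, adjusted p = 1), and Crh, corticotropin-releasing hormone, with 22, 0 and 5 counts in wild type and 0 in mSOD (adjusted p = 1). Npy, neuropeptide Y, differed between mSOD libraries, at 143, 0.470 and 100.4 CPM against 3.31, 0 and 0 CPM in wild type (adjusted p = 0.651), so 1 mSOD library overlapped wild type. Nts, neurotensin, was at 149, 70.9 and 108 CPM in wild type and 192, 246 and 970.4 CPM in mSOD (log2 change 2.51, SE 1.19, adjusted p = 1), with mSOD replicate 3 far above the others. Vgf, a granin-like secreted precursor, was at 115, 111 and 141 CPM against 272, 392.1 and 263 CPM (log2 change 1.46, SE 0.51, adjusted p = 0.831). Nts and Vgf were higher in all 3 mSOD libraries than in any wild-type library. The same held for Calca, which encodes CGRP, at 1785, 1224 and 932 CPM against 2526, 2999 and 4238 CPM (log2 change 1.32, SE 0.74, adjusted p = 1).

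Genes of cholinergic motor neuron identity did not pass in either direction (0 of 20 tested, beside 0.0703% of all genes). Their median log2 change was −0.14. At an unadjusted p under 0.05, 3 of the 20 were higher (2.25% of all genes) and 0 lower (2.13%). In 5 every mSOD library was above wild type (4.81% of all genes) and in 1 below (4.76%). Chat, which makes acetylcholine, was at 121, 159.6 and 157 CPM in wild type and 131, 116 and 91.4 CPM in mSOD (log2 change −0.29, SE 0.24, adjusted p = 1). Stmn2, a microtubule regulator of axons, was at 1260.2, 1432 and 1383 CPM against 1879, 2151 and 2121 CPM (log2 change 0.61, SE 0.18, adjusted p = 0.603). Ret, the receptor for GDNF family ligands, was at 385, 324 and 336 CPM against 469, 516 and 502 CPM (log2 change 0.61, SE 0.19, adjusted p = 0.636). Stmn2 and Ret lay higher in all 3 mSOD libraries. The neurofilament gene Nefm was the 1 member with all mSOD libraries below wild type, at 4255, 3723 and 3968 CPM against 2866, 3446 and 3010.0 CPM (log2 change −0.46, SE 0.25, adjusted p = 1). Ngfr, the p75 neurotrophin receptor, was at 0, 0.827 and 0 CPM against 2.05, 6.57 and 7.78 CPM (adjusted p = 0.810).

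In 4 stress-related lists no gene passed, where 0.0703% of all genes did. The counts were 0 of 26 in the unfolded protein and integrated stress response and 0 of 22 heat shock chaperones. They were 0 of 27 oxidative stress and metal-binding genes and 0 of 25 cell death genes. At an unadjusted p under 0.05, 2, 1, 5 and 4 were higher (2.25% of all genes) and 0 lower in each list (2.13%). The medians were 0.02, 0.11, 0.15 and 0.06, against −0.02 over all genes tested. Atf4, the transcription factor of the integrated stress response, was at 38.9, 53.3 and 43.9 CPM in wild type and 79.1, 67.2 and 56.4 CPM in mSOD (log2 change 0.63, SE 0.28, adjusted p = 1). The redox genes Txn1 (log2 change 0.69, SE 0.22, adjusted p = 0.695) and Srxn1 (log2 change 0.66, SE 0.22, adjusted p = 0.748) had no overlap between genotypes. The metallothioneins Mt1 (log2 change 0.82, SE 0.28, adjusted p = 0.830) and Mt2 (log2 change 1.35, SE 0.63, adjusted p = 1), which bind zinc and copper, had none either. The chaperone Hspa8 overlapped (log2 change 0.43, SE 0.18, adjusted p = 1).

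In the S100 and annexin list S100a11 was the 1 gene of 13 tested that passed, where 0.0703% of all genes did. As said above, the lists were chosen with earlier results known, so such shares are no test. At an unadjusted p under 0.05, 3 of the 13 were higher (2.25% of all genes) and 0 lower (2.13%). S100a10, the partner of annexin A2, was at 655, 686 and 645 CPM in wild type and 1056, 1049.6 and 1322 CPM in mSOD (log2 change 0.79, SE 0.23, adjusted p = 0.415). In the tetraspanin and lysosome list Cd63 was the 1 of 29 that passed. At an unadjusted p under 0.05, 6 of the 29 were higher and 1 lower. Ctsb, the protease cathepsin B, was at 481, 470.3 and 448 CPM against 794, 745 and 733 CPM (log2 change 0.71, SE 0.18, adjusted p = 0.200). In the polyamine list Odc1 was the 1 of 16. Srm, which makes spermidine (log2 change 0.34, SE 0.32), and Sat1, which acetylates it (log2 change 0.33, SE 0.31), overlapped between genotypes. Of the 28 ALS-linked genes tested, 0 passed, and Vapb, a membrane protein of the endoplasmic reticulum, was at 75.96, 99.6 and 85.3 CPM in wild type and 55.2, 71.9 and 61.03 CPM in mSOD (log2 change −0.58, SE 0.26, adjusted p = 1). None passed of the 22 interferon, antigen presentation and complement genes or the 19 cytokine receptor and JAK-STAT genes. The same held for the 24 ubiquitin and autophagy adaptors and the 19 amino acid and one-carbon genes. In that order, 3, 1, 0 and 2 were higher at an unadjusted p under 0.05 (2.25% of all genes), and 0, 1, 0 and 0 lower (2.13%). Their medians were 0.37, −0.06, 0.06 and 0.17.

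The libraries carried motor neuron markers at summed levels of 8776 to 9650.2 CPM in mSOD and 9418 to 11099.5 CPM in wild type, and none of the 10 markers was at 0 in all libraries. Microglia and macrophage markers (18 genes) summed to 19.4 to 49.4 CPM in mSOD and 13.4 to 18.02 CPM in wild type, without overlap. The highest sum was in mSOD replicate 3. Tmem119, a defining microglial marker, was at 0 in all 6 libraries. Of the 16 microglial markers tested, 13 had a fitted log2 change above 0, Tmem119 without reads among them, and the median was 0.73. Laptm5 had 0 counts in wild type and 3, 10 and 8 in mSOD, and Cd68 had 0 counts in wild type and 1, 0 and 9 in mSOD (adjusted p = 0.893 and 1). Every mSOD library was above wild type in 2 of the 18 markers, where 4.81% of all genes were. Oligodendrocyte markers (16 genes) summed to 184 to 292 CPM in mSOD and 313 to 368 CPM in wild type, and markers of glutamatergic, GABAergic and glycinergic neurons (8 genes) to 7.16 to 13.1 against 24.4 to 27.6 CPM, both lower in every mSOD library. Astrocyte markers overlapped, at 1061 to 1220.0 against 927 to 1128 CPM, and most of this was S100b, whereas Gfap reached 0.486 CPM at most. Of 12 markers of T cells and other leukocytes, 10 were at 0. Schwann cell markers (9 genes) summed to 529 to 559.5 CPM in mSOD and 404 to 504 CPM in wild type, without overlap, most of it Pmp22. The sums of endothelial, meningeal, visceral motor, monoaminergic and blood cell markers overlapped. The part of other cell types in the 13 genes was not tested.

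**Figure D4:**
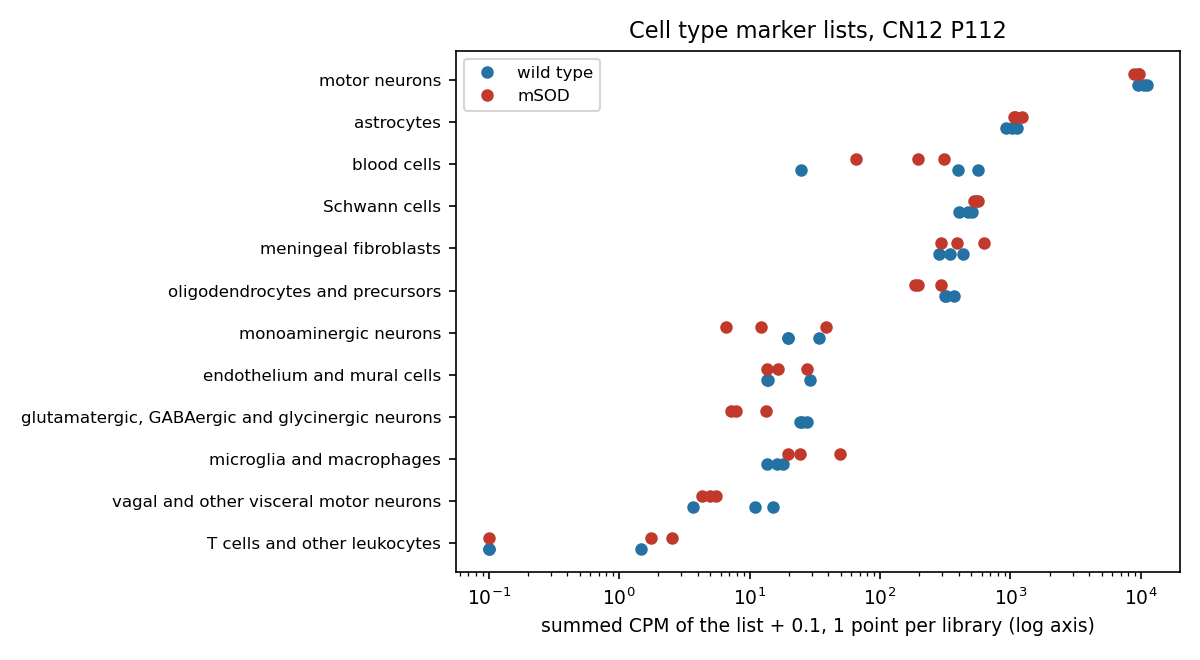
Summed CPM plus 0.1 of 12 cell type marker lists on a log axis, with 1 point per library, wild type in blue and mSOD in red. Motor neuron markers lie highest, between 8776 and 11099.5 CPM, while the microglial and Schwann cell sums are higher and the oligodendrocyte and other-neuron sums lower in each mSOD library.

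The genotype effect in CN12 was then compared with that at P56, with 3 mSOD and 3 wild-type libraries at that age. None of the 13 genes had an adjusted p under 0.05 at P56, where 1 gene did (0.00541%). The difference between the effects at both ages passed for 4 genes (0.0216%), S100a11, Gm12854, Cd63 and Cd63-ps. At P56 S100a11 was at 0 to 2.43 CPM in mSOD and 0.936 to 1.42 CPM in wild type (difference between the effects 6.31, SE 1.13, adjusted p = 0.0119). Cd63 was at 1.46 to 3.83 CPM in mSOD and 4.91 to 7.08 CPM in wild type at P56, the reverse of its order at P112 (difference 4.47, SE 0.85, adjusted p = 0.0144). Sprr1a had 0 counts in the mSOD libraries at P56. Gal was at 23.1 to 59.5 CPM in mSOD and 11.02 to 34.9 CPM in wild type at P56, and its difference did not pass (4.35, SE 1.13, adjusted p = 0.663). The count of 4 rests on single libraries: it was 0 without P56 mSOD replicate 2 or P56 wild-type replicate 3, and 1 without P56 wild-type replicate 1 or P112 wild-type replicate 2. All CN12 libraries at P56 came from project P11355 and all but 1 at P112 from P10814, so in CN12 age and project can hardly be told apart.

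Against the eye muscle nuclei (CN3/4) at P112, the effects differed for S100a11, Gm12854, Gm7665 and Gal (0.0216% of genes). In CN3/4, S100a11 was at 1.57 to 3.85 CPM in mSOD and 1.41 to 3.34 CPM in wild type (difference between the effects 6.36, SE 0.96, adjusted p = 0.000711). Gal in CN3/4 was at 19.2 to 33.01 CPM in mSOD and 27.9 to 87.2 CPM in wild type (difference 6.36, SE 1.15, adjusted p = 0.0134). Within project P10814, 2 of these 4 genes passed. Of the 13 genes, 0 passed in CN3/4 itself, where no gene of the whole set did (0%) and 587 had an unadjusted p under 0.05.

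In the vagus nucleus (CN10) several of these genes were already high in wild type. S100a11 was at 368 to 484 CPM in wild type and 437 to 735 CPM in mSOD, above every CN12 library. Gal was at 2344 to 2474 CPM in wild type and 1851 to 1994 CPM in mSOD, and Gap43 at 1041 to 1069 CPM and 904 to 1028 CPM. Cd63 and Rhoc were at 50.3 to 53.9 CPM and 24.1 to 34.1 CPM in wild-type CN10, above every wild-type CN12 library. Sprr1a, in contrast, did not exceed 0.643 CPM in CN10, and Cryba2 had 0 counts. The genotype effects differed between CN12 and CN10 for S100a11 (6.06, SE 0.78, adjusted p = 1.69e-05), Gm7665 and Gm12854 (3 genes, 0.0162%). Of the 13 genes, 0 passed in CN10 itself, where no gene of the whole set did (0%) and 669 had an unadjusted p under 0.05.

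**Figure D5:**
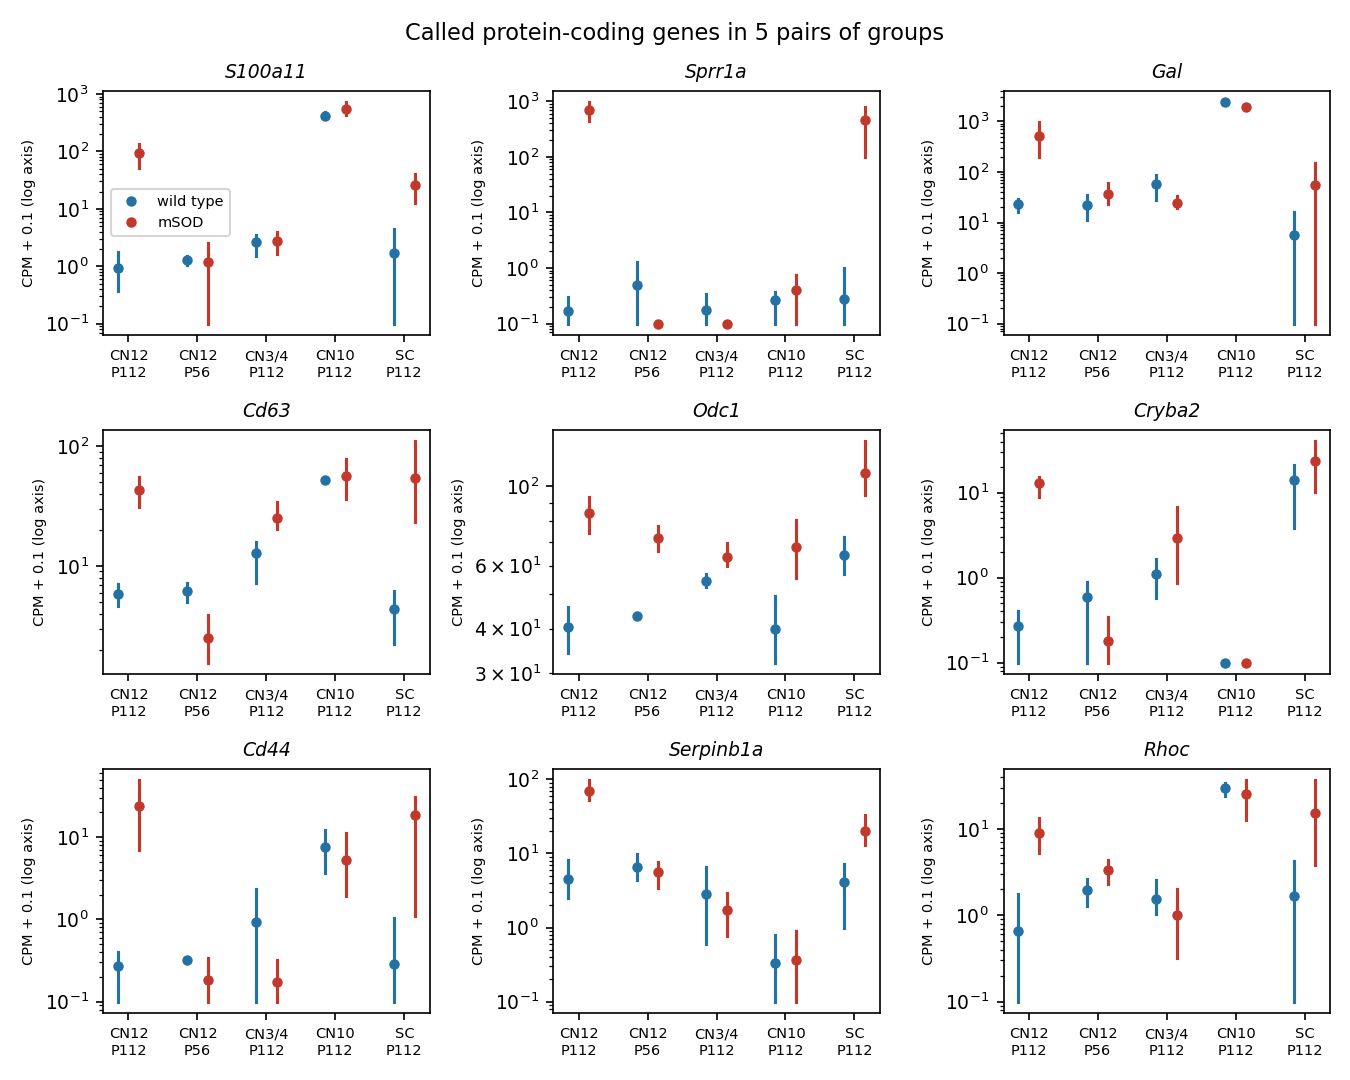
CPM plus 0.1 on a log axis for the 9 protein-coding genes in 5 pairs of groups, with the mean as a point and the lowest to highest library as a line, wild type in blue and mSOD in red (3 libraries each, 5 in wild-type SC). S100a11, Gal, Cd63 and Rhoc lie high in both genotypes in CN10, while Sprr1a lies high in mSOD CN12 and mSOD SC at P112.

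In spinal cord motor neurons (SC) at P112, 8 of the 13 genes also had an adjusted p under 0.05, all higher in mSOD. They are 61.5% of the 13 and 9.20% of the 87 genes called there (0.47% of genes tested). The 8 were S100a11, Gm7665, Gm12854, Sprr1a, Odc1, Cd63, Cd63-ps and Cd44. Among them Gm7665, Gm12854 and Cd63-ps are copies of S100a11 or Cd63, so these calls may not be separate genes. Sprr1a was at 99.6 to 802 CPM in mSOD SC and at most 0.888 CPM in wild type. Cryba2 in wild type was at 3.71 to 21.3 CPM in SC, against at most 0.300 CPM in CN12. None of the 13 differed in effect between CN12 and SC past the threshold, with S100a11 at a difference of 2.95, SE 0.93, adjusted p = 0.401 and Gal at 2.47, SE 1.18, adjusted p = 0.785.

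For 9 other genes (0.0487%) the effect in CN12 did differ from that in SC. Chodl, a marker of fast motor neurons, was at 266, 209 and 234 CPM in wild type and 183, 239 and 412 CPM in mSOD CN12, but at 242 to 781 CPM in wild-type SC and 28.3 to 88.8 CPM in mSOD SC (difference 3.03, SE 0.63, adjusted p = 0.0436). Hpcal1, a neuronal calcium sensor, was at 59.7, 56.2 and 64.9 CPM in wild type and 69.6, 62.5 and 77.1 CPM in mSOD CN12, and at 154 to 314 CPM in wild type and 53.1 to 82.4 CPM in mSOD SC (difference 1.80, SE 0.31, adjusted p = 0.00541). Both genes overlapped between genotypes in CN12 and were apart in SC. Rab3b, Cyp51 and Cd24a were among the other genes with a more positive effect in CN12. Rgs10, Usp11 and Wipf3 had a more negative one. Rgs10, a regulator of G protein signalling, was at 14.4, 12.4 and 9.91 CPM in wild type and 5.80, 4.70 and 4.38 CPM in mSOD CN12, and at 0 to 5.57 CPM in wild type and 7.56 to 16.5 CPM in mSOD SC (difference −3.78, SE 0.63, adjusted p = 0.00453). SC libraries came from 3 projects. The count of 9 was 0 in a fit of only these groups and 0 without SC mSOD replicate 3. It was 2 without CN12 wild-type replicate 1 or CN12 mSOD replicate 1, 1 without CN12 wild-type replicate 2 and 4 without CN12 mSOD replicate 3. Without SC wild-type replicate 2, 4 or 5 it was 1, 5 or 4. It was 30 without SC wild-type replicate 1 and 41 without SC mSOD replicate 1.

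Odc1 lay higher in every mSOD library than in any wild-type library in all 5 pairs of groups compared here. Its ranges in mSOD and wild type were 65.9 to 77.2 CPM and 42.7 to 43.6 CPM in CN12 at P56, 59.8 to 69.2 CPM and 52.1 to 56.6 CPM in CN3/4, 55.3 to 80.4 CPM and 32.05 to 49.2 CPM in CN10, and 94.4 to 134 CPM and 56.9 to 71.95 CPM in SC. Odc1 passed in CN12 and SC at P112 (SC adjusted p = 0.00777), with adjusted p values of 0.427, 1 and 0.765 in the other 3. The effect of Odc1 in CN12 at P112 did not differ past the threshold from that in any of the other 4. Outside these 5 pairs, Odc1 overlapped between genotypes in CN3/4 at P56 (51.7 to 67.0 CPM in mSOD, 31.8 to 55.7 CPM in wild type). In CN10 and SC at P56 it did not overlap.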

How the data were processed

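Whole-number read counts per gene and RPKM values were deposited by the authors, as separate matrices of 54 libraries. Per the submitters' processing notes, reads were aligned with STAR 2.7.0e to GRCm39 (mm39). The counting program and annotation are not given in the sources used here. The deposited counts went into edgeR 4.0.16 (with limma 3.58.1 and data.table version 1.17.8, under R 4.3.3). Plots came from matplotlib 3.10.9 under Python 3.11.15, and pseudogene transcripts were matched with blastn 2.17.0. Groups followed the labels' nucleus, age and genotype. All 54 libraries entered 1 fit (filterByExpr, TMM, 16 group means and project, robust quasi-likelihood), and Benjamini-Hochberg adjustment ran over 18493 mouse genes of 55354, two-sided, at 0.05. The human SOD1 entry stayed in library sizes but out of the tests. CPM used TMM-scaled sizes and log2 CPM a prior count of 2; a fold whose lower arm held 1 to 3 counts is a ratio of summed counts with an exact 95% interval. The RPKM deposited by the authors served for levels by length and as a check.

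Genes named were Sod1, every gene past the threshold, the next 10 higher and 10 lower genes by p with no overlap between arms, members of the gene lists by smallest p and defining markers, and genes whose effects differed between groups (up to 5 per direction); Chl1, Sox11, Jun, Klf6, Smad1, Nts, Calca, Pcsk2, Mt2, Srm and Sat1, list members beyond this rule, were named after their values were seen. The members and lists were chosen with earlier results of these data known. The script was tested on simulated data. DESeq2 1.42.0, other scalings, filters, designs and leaving out each library were alternatives. Labels give no replicate numbers, so no pairing was possible. A few genes with values in these libraries are not reported here.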

Additional observations from a re-analysis of the deposited data

Results flagged for a closer look

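A genotype effect that differed between CN12 at P112 and another age or nucleus, by the test of the difference itself in edgeR, was found for the genes named here. Against P56 the differences on the log2 scale were 6.31 for S100a11, 6.19 for Gm12854, 4.47 for Cd63 and 5.24 for Cd63-ps. Against CN3/4 they were 6.36 for S100a11, 6.36 for Gm7665, 6.38 for Gm12854 and 6.36 for Gal. Against CN10 they were 6.06 for S100a11, 5.84 for Gm7665 and 5.69 for Gm12854. S100a11 and its copies make up 8 of these 11 cases, and which of these genes their reads came from is uncertain. Against SC the more positive effects in CN12 were 1.43 for Cyp51, 1.98 for Rab3b, 3.03 for Chodl, 2.09 for Cd24a and 1.80 for Hpcal1. The more negative ones were −3.78 for Rgs10, −2.24 for Usp11 and −8.44 for Wipf3, and the last is a fitted value with 0 counts in the mSOD CN12 libraries, not a measured fold. In CN12 itself none of these 8 genes passed between genotypes.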

How the results depend on the processing

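The 13 genes called between genotypes in CN12 at P112, 13 higher and 0 lower, became 83 without a filter on low counts (58 higher, 25 lower), 29 in a fit of only the 6 libraries (28 and 1), 60 within project P10814 (53 and 7) and 29 with DESeq2 (27 and 2). They were 13 or 14 with RLE size factors, without the project term and with human SOD1 left out of the library sizes. Leaving out 1 library gave 4 to 13. For the difference from P56 (4 genes) the same alternatives gave 46 without the filter, 9 with only the groups compared and 15 with DESeq2, and 0 to 4 without 1 library. For the difference from CN3/4 (4) they gave 41, 22 with DESeq2 and 2 within P10814, and 3 to 6 without 1 library. For the difference from CN10 (3) they gave 37, 6 with only the groups compared, 5 within P10814 and 8 with DESeq2, and 3 to 4 without 1 library. For the difference from SC (9) they gave 103, 0 with only the groups compared and 29 with DESeq2, and 0 to 41 without 1 library. The cause of these shifts was not tested. With RLE size factors, without the project term and without each of the 6 libraries, the settings under which list medians were recomputed, the median log2 change of the nerve injury list was 0.64 to 0.79, whereas that of motor neuron identity was −0.25 to 0.06 and that of the unfolded protein list −0.09 to 0.04. Wild type held 1 to 3 counts in all for Sprr1a, Cryba2, Cd44, Gm7665 and Gm29240, so depth limits the size of those changes. No paired analysis was possible because the labels carry no replicate numbers.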
